A study of Arabidopsis thaliana with 4 samples.

Results

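The genes described here are the nuclear RBCS and LHCB (CAB) genes of Arabidopsis thaliana, seen through the small RNA reads that map to their transcripts. They are 9 of the 38194 entries of the gene table and were taken by locus name, not by a cutoff on measured values. Earlier results of these data were known when they were chosen. The 4 RBCS members are RBCS1A (AT1G67090) on chromosome 1 and RBCS3B (AT5G38410), RBCS2B (AT5G38420) and RBCS1B (AT5G38430), which lie close together on chromosome 5. The 5 LHCB members are the LHCB1 genes CAB3 (AT1G29910), CAB2 (AT1G29920) and CAB1 (AT1G29930), direct neighbours on chromosome 1, and the LHCB2 genes LHCB2.2 (AT2G05070) and LHCB2.1 (AT2G05100) on chromosome 2. Symbols were matched by locus tag in a RefSeq table for all 9 members.

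Small RNAs were sequenced from seedlings 10 days after germination, grown in long days on medium or soil. The 2 groups were PORI, labelled as the control, and PORI rpt2a, in which PORI is combined with a mutation of the proteasome subunit gene RPT2a, with 2 libraries each. Both groups carry PORI, and the labels do not say what PORI is, which rpt2a allele was used, or whether the libraries of a group came from separately grown plants. The spread behind every p-value is thus that between these 4 libraries, and part or all of it may be technical. In whole seedlings, fewer cells that make an mRNA and less of that mRNA per cell cannot be told apart.

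RBCS genes encode the small subunit of Rubisco, the enzyme that fixes carbon dioxide, which is imported into the chloroplast and assembled there with a large subunit made in that organelle. LHCB1 and LHCB2 proteins bind chlorophylls a and b and form the main light-harvesting antenna of photosystem II. Their mRNAs are among the most abundant of green tissue. Dicer-like enzymes cut double-stranded RNA into pieces of set size, mainly 21, 22 and 24 nt, whereas general breakdown of mRNA leaves pieces of many lengths.

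The gene tables held between 2886928 and 4806891 counts per library, of which 5.89% to 7.56% lay on nuclear protein-coding genes. Reads on the 9 members summed to 6371 and 4841 in the PORI pair and to 5445 and 2558 in the PORI rpt2a pair, replicate 1 first here and throughout. These were 1.79%, 1.82%, 1.74% and 1.503% of the counts on nuclear protein-coding genes. PORI rpt2a replicate 2 was the shallowest library and stood apart, its log2 CPM correlating with the other libraries at 0.699 to 0.821, against 0.823 to 0.914 among those 3. Per the labels' protocols, every RNA sample had an integrity number above 8. Of other organ markers, both root mRNAs on the list, PYK10 and PBP1, were detected (56 to 234 reads summed per library), while the 6 seed storage genes summed to 1 to 4 reads. All 9 members passed the filter on low counts.

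The genes beside the RBCS and LHCB1 members held few reads. The genes flanking RBCS1A, ABA4 and LBD40, had 0 to 8 and 0 counts in each library, and every gene beside the 3 RBCS members of chromosome 5 that is not itself a member had 0 counts in all 4 libraries. CARB and NRPA2, which flank the LHCB1 trio, had 12 to 33 and 1 to 15 counts. Beside the LHCB2 members the counts were mixed. AT2G05110, a pseudogene beside LHCB2.1 per RefSeq, had 157 and 120 counts in the PORI pair and 295 and 114 in the PORI rpt2a pair. AT2G05080, a pseudogene beside LHCB2.2, had 38 to 138. On the other sides, AT2G05060 beside LHCB2.2 had 4 to 14 counts and AT2G05090 beside LHCB2.1 had 12 to 36. The members of a family are close copies, and how the authors counted reads that fit several copies is not given in the sources used here. Values of a single copy are therefore uncertain, and sums over a family are given beside them.

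The first comparison asked whether small RNA levels of these mRNAs differed between PORI rpt2a and PORI. None of the 9 members passed the test over all read lengths, against 0.0247% of the 8110 genes tested (edgeR's quasi-likelihood test with Benjamini-Hochberg adjustment at 0.05). At an unadjusted p under 0.05 there was 1 member, RBCS2B, in a table where 23% of genes lay under that value, and DESeq2 also called 0 members, against 7.26% of genes. TMM-normalised CPM (reads relative to library size) of the groups did not overlap for 2 members, RBCS1A and RBCS2B, where 57.1% of all genes tested were so separated; the mutant pair was the lower for both, and the higher for 0 members against 27.5% of genes.

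RBCS1A, which lies apart from the other small subunit genes, had 1410 and 1044 counts in the PORI pair and 947 and 464 in the PORI rpt2a pair. After TMM scaling these were 249 and 258 CPM in the PORI pair and 173 and 233 CPM in the PORI rpt2a pair. Both mutant libraries lay below both controls, as did 29.6% of all genes tested, and replicate 2 was close to them. The log2 fold change was -0.32 ± 0.35 (SE, n = 2 per group), with a 95% interval from -1.17 to 0.53 (edgeR adjusted p = 0.623).

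RBCS2B stood lowest relative to PORI. It had 421 and 296 counts in the PORI pair and 237 and 76 in the PORI rpt2a pair, or 74.3 and 73.0 CPM against 43.3 and 38.1 CPM. The control libraries were nearly equal and the mutant pair lay well below them, at means of 73.7 ± 0.899 and 40.7 ± 3.66 CPM (SD, n = 2 each). Its log2 fold change was -0.85 ± 0.28 (SE), with a 95% interval from -1.55 to -0.16, and missed the threshold (edgeR adjusted p = 0.152). With TMM factors from nuclear protein-coding genes only it was at -0.58 (edgeR adjusted p = 0.477). It passed without PORI rpt2a replicate 1, at -0.95 (edgeR adjusted p = 0.0306), in a fit that called 26.6% of all genes. That fit has 1 mutant library, assumed to vary like the PORI pair, which alone gives the spread between replicates.

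RBCS3B had 535 and 436 counts in the PORI pair and 423 and 219 in the PORI rpt2a pair, or 94.4 and 108 CPM against 77.3 and 110 CPM. RBCS1B, the sparsest member, had 137 and 122 counts in the PORI pair and 83 and 69 in the PORI rpt2a pair, or 24.2 and 30.1 CPM against 15.2 and 34.6 CPM. For both genes, in CPM, mutant replicate 1 lay below the controls and mutant replicate 2 above them, so the groups overlapped. This depended on the scaling for RBCS3B. Of the counts on nuclear protein-coding genes it held 0.151% and 0.164% in PORI and 0.135% and 0.129% in PORI rpt2a. RBCS1B still overlapped on that scale, at 0.0386% and 0.0460% against 0.0265% and 0.0406%. Their log2 fold changes were -0.11 ± 0.33 and -0.15 ± 0.45 (SE; edgeR adjusted p = 0.864 and 0.867). All 4 RBCS members had a negative log2 fold change, but when TMM factors were taken from nuclear protein-coding genes only, 2 of the 4 were above 0. Their median of -0.23 stands beside -0.28 over the 3758 nuclear protein-coding genes tested, of which 2427 were below 0, and -0.036 over all genes tested.

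Among the antenna genes, CAB1 had 1861 and 1419 counts in the PORI pair and 1719 and 804 in the PORI rpt2a pair. These were 328 and 350 CPM in the PORI pair and 314 and 403 CPM in the PORI rpt2a pair, with the mutant libraries on either side of the controls. Of the counts on nuclear protein-coding genes, CAB1 held 0.524% and 0.535% in PORI and 0.549% and 0.473% in PORI rpt2a. There the mutant libraries also lay on either side, but in the opposite order. Its log2 fold change was 0.081 ± 0.36 (SE), with a 95% interval from -0.79 to 0.95 (edgeR adjusted p = 0.909).

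CAB3, its neighbour, had 597 and 374 counts in the PORI pair and 554 and 303 in the PORI rpt2a pair, or 105 and 92.3 CPM against 101 and 152 CPM. CAB2, which lies between CAB3 and CAB1, had 619 and 506 counts in the PORI pair and 726 and 178 in the PORI rpt2a pair, or 109 and 125 CPM against 133 and 89.3 CPM. In CPM the mutant libraries thus differed from each other in opposite ways at these copies, replicate 2 being the higher at CAB3 and the lower at CAB2. Of the counts on nuclear protein-coding genes, CAB3 held 0.168% and 0.141% in PORI and 0.177% and 0.178% in PORI rpt2a. CAB2 held 0.174% and 0.191% against 0.232% and 0.105%. Their log2 fold changes were 0.36 ± 0.35 and -0.074 ± 0.34 (SE; edgeR adjusted p = 0.581 and 0.914).

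For the LHCB2 genes, LHCB2.2 had 469 and 383 counts in the PORI pair and 460 and 238 in the PORI rpt2a pair, or 82.8 and 94.5 CPM against 84.1 and 119 CPM. LHCB2.1 had 322 and 261 counts in the PORI pair and 296 and 207 in the PORI rpt2a pair, or 56.8 and 64.4 CPM against 54.1 and 104 CPM. Both genes were high in mutant replicate 2 and at or just under control level in mutant replicate 1. The log2 fold changes were 0.20 ± 0.33 and 0.38 ± 0.39 (SE; edgeR adjusted p = 0.759 and 0.605). LHCB2.1 passed without PORI rpt2a replicate 1, at 0.78 (edgeR adjusted p = 0.0490), again where 26.6% of all genes were called and with the spread from the PORI pair alone. It was at -0.15 without PORI rpt2a replicate 2. Over the 5 LHCB members the median was 0.20 with 4 above 0, and -0.081 with 2 above 0 when libraries were scaled to the total of the 3 tables. Of all genes tested 3944 of 8110 were above 0, and of nuclear protein-coding genes 1331 of 3758.

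**Figure D1:**
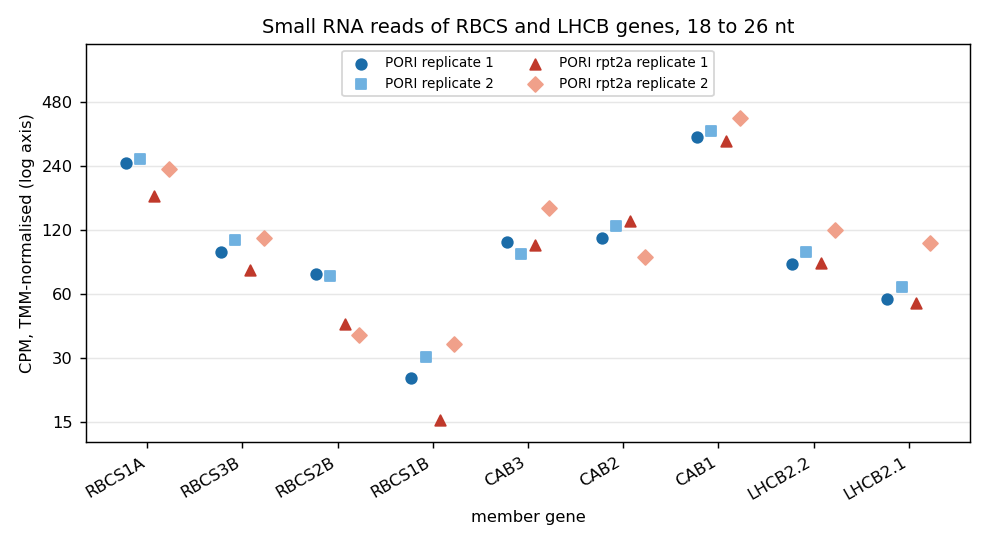
TMM-normalised CPM (log axis) of the 9 members in each of the 4 libraries, over read lengths 18 to 26 nt. The RBCS2B points of PORI rpt2a, at 43.3 and 38.1 CPM, lie under those of PORI, at 74.3 and 73.0 CPM, while all 5 LHCB members overlap between groups.

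**Figure D2:**
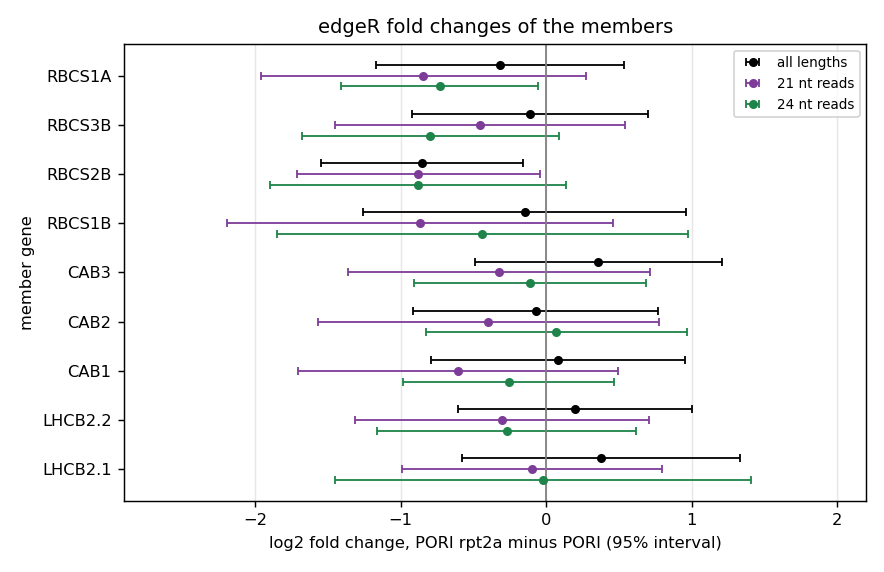
edgeR log2 fold changes (PORI rpt2a minus PORI) of the 9 members with 95% intervals, for all lengths, 21 nt and 24 nt reads. Over all lengths every interval except that of RBCS2B, from -1.55 to -0.16, includes 0, and no member passed after adjustment in any of the 3 fits.

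The same comparison was made for reads of the main Dicer sizes alone. In 21 nt reads no member passed, as none of the 1414 genes tested did (0%), and RBCS2B was the 1 member at an unadjusted p under 0.05, beside 33.9% of all genes. RBCS2B had a log2 fold change of -0.88 ± 0.34 (SE; edgeR adjusted p = 0.138) and CAB1 of -0.61 ± 0.45 (adjusted p = 0.346), the 9 members ranging from -0.88 to -0.10. The 9 members' median was -0.46, beside -0.51 over the 400 nuclear protein-coding genes tested at 21 nt, of which 302 were below 0. In 24 nt reads no member and none of the 4575 genes tested passed (0%). The members' median was -0.27, beside -0.67 over the 1277 nuclear protein-coding genes tested at 24 nt, of which 920 were below 0. RBCS1A was the 1 member at an unadjusted p under 0.05, beside 28.3% of genes, at -0.73 ± 0.28 (SE; edgeR adjusted p = 0.152). Without PORI rpt2a replicate 2 it passed, at -0.86 (adjusted p = 0.0290), in a fit that called 20% of genes and took its spread from the PORI pair alone, the mutant arm being 1 library. DESeq2 called 0 members at either size, against 0.849% of genes in 21 nt reads and 2.64% in 24 nt reads, and gave no adjusted p for 3 members at 24 nt.

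Summed by family, RBCS reads had 442 and 468 CPM in the PORI pair and 309 and 416 CPM in the PORI rpt2a pair. LHCB reads had 683 and 726 CPM in the PORI pair and 686 and 868 CPM in the PORI rpt2a pair. The mutant pair lay below the controls for RBCS and overlapped them for LHCB, but with TMM factors from nuclear protein-coding genes only the RBCS groups overlapped and the LHCB sums of the mutant pair lay above both controls. The log2 ratio of the group means was -0.33 for RBCS and 0.14 for LHCB, or -0.066 and 0.41 with those factors. As a share of the counts on nuclear protein-coding genes, RBCS stood at 0.705% and 0.715% in the PORI pair and 0.540% and 0.487% in the PORI rpt2a pair, and LHCB at 1.09% and 1.11% against 1.20% and 1.02%.

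Since both families were counted in the same libraries, their ratio does not depend on scaling. RBCS reads were 39.3% (95% Wilson interval 38.1% to 40.5%) and 39.2% (37.8% to 40.6%) of all member reads in the PORI libraries. In the PORI rpt2a libraries they were 31.0% (29.8% to 32.3%) and 32.4% (30.6% to 34.2%). The mean difference was -7.54 percentage points, between 39.2% ± 0.0570 in the PORI pair and 31.7% ± 0.941 in the PORI rpt2a pair (SD, n = 2 each), larger than the spread within either group. It is a description: this ratio was chosen after the values were seen, it is a score over the members, and an exact two-sided permutation test of 2 against 2 libraries cannot go below p = 0.333. Wilson intervals here hold counting error alone, because the labels name no molecular identifiers and reads without them are not independent molecules.

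The lower RBCS share appeared in each length class. Of reads of 18 to 20 nt it was 36.0% and 38.5% in the PORI pair and 28.6% and 31.6% in the PORI rpt2a pair, and of reads of 21 to 23 nt 38.2% and 37.7% against 31.6% and 31.6%. Among reads of 24 to 26 nt it was 43.9% and 41.8% against 33.7% and 35.4%. In each class both mutant libraries lay below both controls. Leaving out any single member kept the groups apart, with differences between -9.20 (without CAB1) and -5.31 points (without RBCS1A). With the most abundant copy of each family alone the difference was -6.64 points. Length classes and members come from the same 4 libraries and are not replicates of this difference.

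**Figure D3:**
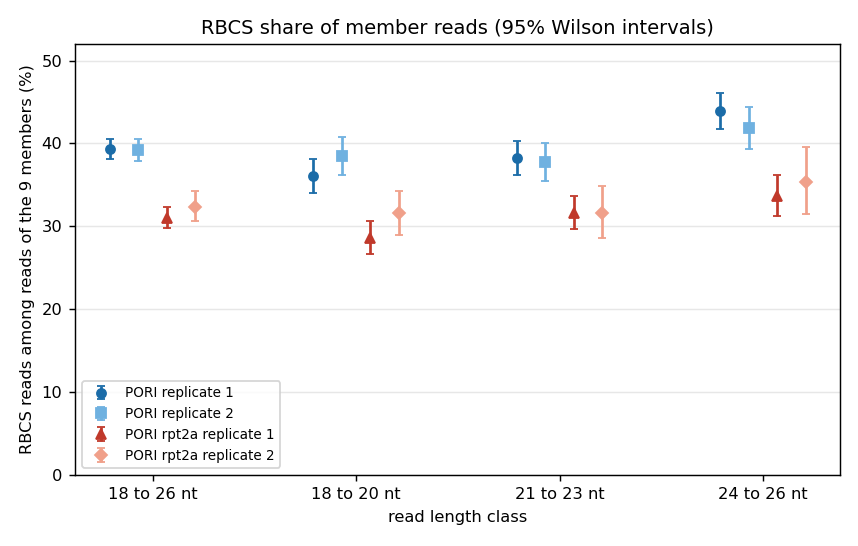
RBCS reads as a percentage of the reads of all 9 members, by read length class and library, with 95% Wilson intervals that cover counting error only. Over all lengths the PORI libraries sit at 39.3% and 39.2% and the PORI rpt2a libraries at 31.0% and 32.4%.

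Within the RBCS family RBCS1A held a similar share in every library, at 56.3% and 55.0% of RBCS reads in the PORI pair and 56.0% and 56.0% in the PORI rpt2a pair. RBCS2B differed more, at 16.8% and 15.6% in the PORI pair and 14.02% and 9.18% in the PORI rpt2a pair. The interval of the last value, 7.40% to 11.3%, did not reach those of the other 3 libraries, of which the lowest bound was 12.4%. That of mutant replicate 1, 12.4% to 15.8%, overlapped that of PORI replicate 2, 14.03% to 17.3%. These intervals hold counting error alone and say nothing of the spread between libraries. RBCS3B lay on the other side, at 21.4% and 22.97% against 25.03% and 26.4%. Within LHCB1 the groups overlapped for every copy, although CAB2 spread from 13.9% in mutant replicate 2 to 24.2% in mutant replicate 1. LHCB2.2 made up 59.3% and 59.5% of LHCB2 reads in the PORI pair and 60.8% and 53.5% in the PORI rpt2a pair.

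The second question was the length profile, as a view of how these mRNAs are broken down. In the PORI libraries reads of each family were spread over all lengths from 18 to 26 nt, where an even spread gives 11.1% at each length. RBCS reads ranged from 9.47% (19 nt) to 12.3% (24 nt) in PORI replicate 1 and from 9.85% (25 nt) to 12.5% (20 nt) in PORI replicate 2. LHCB1 reads ranged from 9.81% to 12.6% and from 9.09% to 13.6%, and LHCB2 reads from 8.72% to 15.04% and from 8.23% to 13.5%.

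The TAS loci, whose transcripts are cut into trans-acting siRNAs, served as a reference for Dicer products in the same libraries. Their reads were 88.4% to 90.9% of 21 nt in the 4 libraries, against 10.5% to 13.3% for the 9 members. Over the 4 libraries summed, 2.59% of RBCS reads, 6.81% of LHCB1 reads and 7.38% of LHCB2 reads would have to change length to give an even profile. For RBCS the sum hides opposite tilts. Reads of 18 to 20 nt were 31.3% in PORI replicate 1 and 45.2% in PORI rpt2a replicate 2. Reads of 24 to 26 nt were 36.0% and 22.8% in these libraries. The measure was taken on summed reads only, so such tilts partly cancel in it. The same measure was 77.6% for the TAS loci, 10.3% for chloroplast genes and 20.9% for the nuclear protein-coding genes without the members. Among 240 other nuclear protein-coding genes with at least 500 counts the median was 49.6%, and 63 of them were at or under the highest member, LHCB2.2 with 8.91% (RBCS1B had too few counts for this measure).

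**Figure D4:**
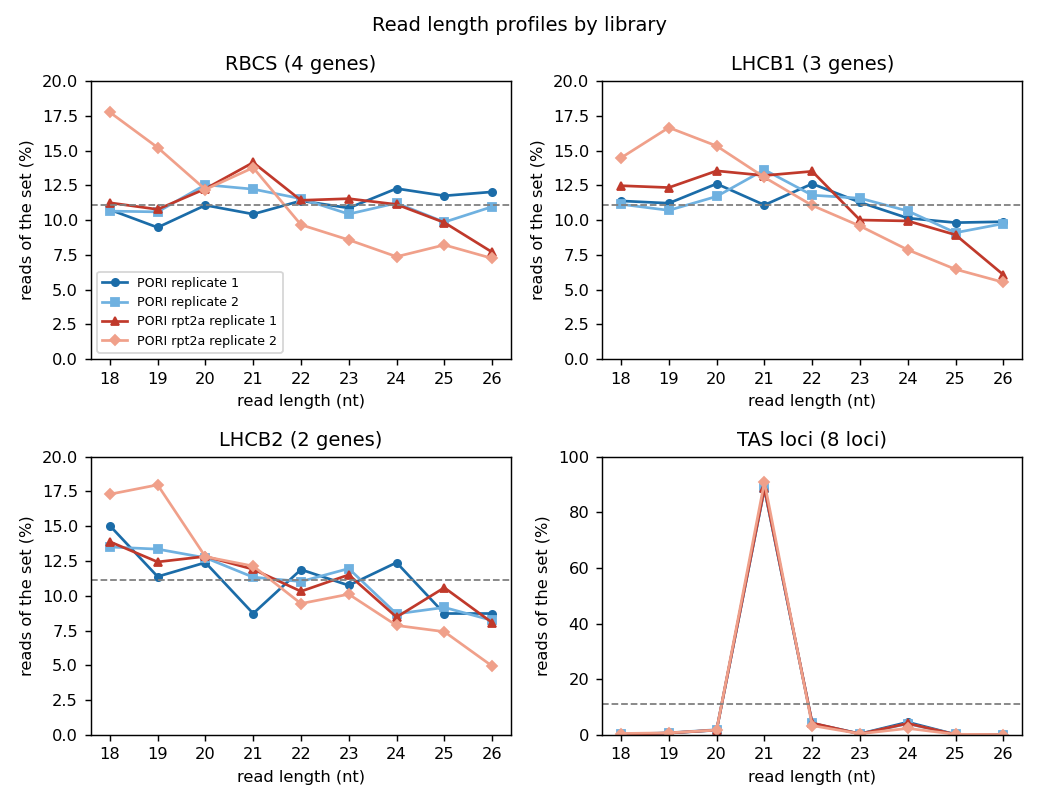
Percentage of reads at each length from 18 to 26 nt for the RBCS, LHCB1 and LHCB2 members and for the TAS loci, by library; the dashed line marks an even spread of 11.1%, and the TAS panel has a taller axis. RBCS and LHCB1 profiles are near level in the PORI pair, while LHCB2 spans 8.72% to 15.04% in PORI replicate 1. At 26 nt RBCS is at 7.69% and 7.25% in the PORI rpt2a pair. Of TAS reads 88.4% to 90.9% are 21 nt long.

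The members' reads were shorter in PORI rpt2a. Reads of 24 to 26 nt made up 32.3% (95% Wilson interval 31.1% to 33.4%) and 30.04% (28.8% to 31.3%) of member reads in the PORI libraries. In the PORI rpt2a libraries they were 26.4% (25.2% to 27.6%) and 20.9% (19.3% to 22.5%). The difference was -7.52 points, or -4.76 without PORI rpt2a replicate 2. Reads of 18 to 20 nt went the other way, at 34.1% and 34.4% in the PORI pair and 37.2% and 46.3% in the PORI rpt2a pair. The difference in 18 to 20 nt reads was 7.49 points, or 2.92 points without PORI rpt2a replicate 2 and 12.1 points without PORI rpt2a replicate 1.

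For RBCS the share of 24 to 26 nt reads was 36.0% and 32.0% in the PORI pair and 28.6% and 22.8% in the PORI rpt2a pair, a difference of -8.30 points, or -5.40 without PORI rpt2a replicate 2. For LHCB1 it was 29.8% and 29.5% against 24.9% and 19.8%, and the mutant pair again lay below both controls. For LHCB2 it was 29.8% and 26.1% against 27.1% and 20.2%, so mutant replicate 1 lay between the controls. At 26 nt RBCS reads stood at 12.03% and 10.96% in the PORI pair and 7.69% and 7.25% in the PORI rpt2a pair, and LHCB1 reads at 9.88% and 9.74% against 6.07% and 5.53%. At 18 nt mutant replicate 2 alone was high, at 17.8% of RBCS reads against 10.6% to 11.2% in the other libraries.

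Single members followed this with exceptions. The 24 to 26 nt share of CAB2 was 28.3% and 28.5% in the PORI pair and 22.7% and 22.5% in the PORI rpt2a pair, with both groups tight. For CAB1 it was 30.2% and 29.7% against 25.5% and 21.02%, and for RBCS3B 38.9% and 29.6% against 27.9% and 15.1%. RBCS2B overlapped between groups, at 34.9% and 39.5% against 29.5% and 35.5%, the last from 76 reads with a 95% Wilson interval of 25.7% to 46.7%. LHCB2.2 overlapped as well, at 29.9% and 24.3% against 27.8% and 18.5%.

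The same direction was seen beyond the members. Across the whole gene table the share of 24 to 26 nt reads was 30.1% and 26.3% in the PORI pair and 25.5% and 17.8% in the PORI rpt2a pair, a difference of -6.57 points beside -7.52 for the members. It was -7.64 for the other 55 nuclear photosynthesis genes on the lists, -7.78 for 24 abundant non-photosynthetic mRNAs and -9.05 for chloroplast genes. TAS loci differed by -1.03 points, from shares of 2.57% to 4.71%. In the mRNA sets plotted, the libraries came in 1 order, PORI replicate 1, PORI replicate 2, PORI rpt2a replicate 1 and PORI rpt2a replicate 2, except in LHCB2. The last library was also the shallowest, with 2886928 gene counts, and the part of depth or of library preparation in this order was not tested.

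**Figure D5:**
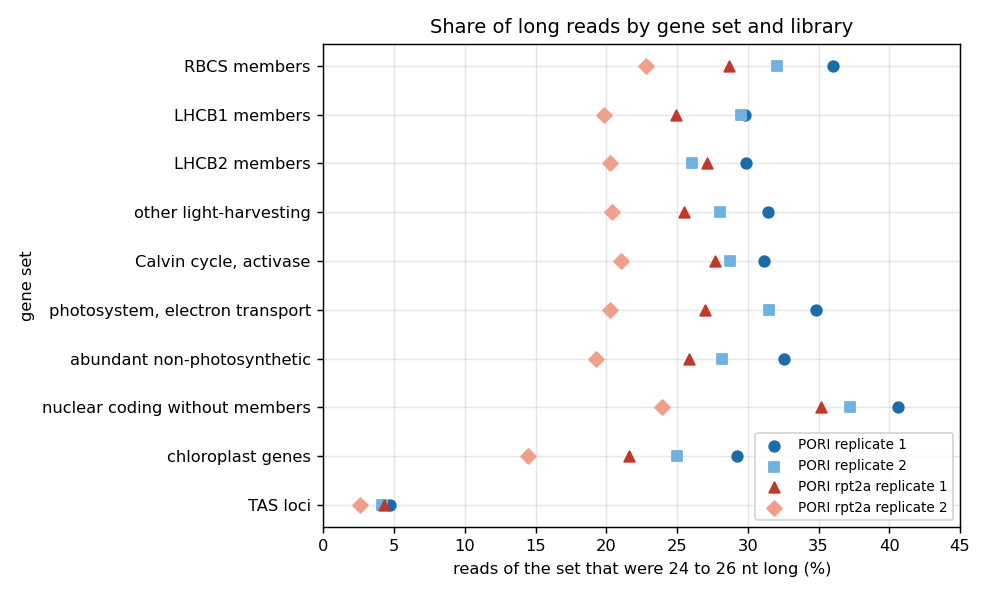
Percentage of reads of 24 to 26 nt in each library, for the RBCS, LHCB1 and LHCB2 members and for comparison sets of genes. Values are lowest in PORI rpt2a replicate 2 in every set, at 22.8% for RBCS, and lie between 2.57% and 4.71% for the TAS loci.

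Other mRNAs of photosynthesis were set beside the members, from gene lists drawn up with earlier results of these data known. Of 16 further light-harvesting genes 14 were tested and 0 passed, with 14 of 14 above 0 and a median log2 fold change of 0.25, which turned to -0.039 with 5 above 0 with library size set to the sum of the 3 tables and to -0.12 without PORI rpt2a replicate 2. LHB1B2 (AT2G34420), an LHCB1 copy that may share reads with the members, was at 0.14 ± 0.35 (SE; edgeR adjusted p = 0.832). LHCB4.2 (AT3G08940), a minor antenna protein, was at 0.51 ± 0.40 (adjusted p = 0.488).

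Of 14 genes of the Calvin cycle and Rubisco activase, 14 were tested and 0 passed. They had 6 above 0 and a median of -0.045, or 12 above 0 and a median of 0.21 with TMM factors from nuclear protein-coding genes only. RCA (AT2G39730), which activates Rubisco, was at 185 and 191 CPM in the PORI pair and 165 and 130 CPM in the PORI rpt2a pair, with a log2 fold change of -0.35 ± 0.33 (SE; edgeR adjusted p = 0.572). SBPASE (AT3G55800), of the regeneration phase of the cycle, was at -0.46 ± 0.36 (adjusted p = 0.492).

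Of 25 photosystem and electron transport genes 25 were tested and 0 passed, with 19 above 0 and a median of 0.23, or -0.021 with library size set to the sum of the 3 tables and -0.20 without PORI rpt2a replicate 2. PSBO1 (AT5G66570), of the oxygen-evolving complex, was at 0.32 ± 0.36 (SE; edgeR adjusted p = 0.635) and PSAE-1 (AT4G28750), of photosystem I, at 0.61 ± 0.38 (adjusted p = 0.392). Of 24 abundant mRNAs outside photosynthesis 24 were tested, 0 passed and 7 were above 0, with a median of -0.41. That median was -0.15 with 10 above 0 under TMM factors from nuclear protein-coding genes only, -0.66 with library size set to the sum of the 3 tables, -0.24 without PORI rpt2a replicate 1 and -0.27 without PORI replicate 2. ATMS1 (AT5G17920), a methionine synthase, was at -0.61 ± 0.33 (adjusted p = 0.327), and AT3G09440 at -1.01 ± 0.36 (adjusted p = 0.172). The 8 TAS loci were all tested, 0 passed and 0 were above 0, with a median of -0.66. Both root mRNAs were tested and 0 passed, at -0.62 ± 0.31 for PYK10 (adjusted p = 0.299) and -0.83 ± 0.34 for PBP1 (adjusted p = 0.216). The chloroplast locus ATCG00490 was at -0.28 ± 0.44 (adjusted p = 0.739). These medians stand beside -0.28 for the 3758 nuclear protein-coding genes tested and -0.036 for all genes.

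The genes whose length profile lay nearest to that of the members were named by the share of reads that would have to change length, over 9 lengths and the 4 libraries summed. For RBCS they were GRP7 (AT2G21660) at 3.08%, APE2 (AT5G46110) at 3.23% and PSBO2 (AT3G50820) at 3.32%. For LHCB they were LHCB6 (AT1G15820) at 1.52%, PSBO1 at 2.69% and CA1 (AT3G01500) at 2.80%. The median distance over the 240 genes compared was 49.7% from RBCS and 50.02% from LHCB.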

How the data were processed

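The authors deposited raw read counts per library for genes, TEs and miRNAs, in 9 columns for read lengths of 18 to 26 nt per the file headers. Per the submitters' processing notes, DESeq2, HTSeq, cutadapt 1.9.1, FastQC 0.11.2 and CASAVA 1.8.2 are named without roles, with build TAIR10; aligner, strand use and treatment of reads with several matches are not given in the sources used here. Gene symbols came from a RefSeq table of assembly TAIR10.1, matched by locus tag for 37898 of 38194 genes (after removal of a suffix marking TE genes); plastid genes were used by locus only. No sequences were used.

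Counts of the whole gene table were tested with edgeR 4.0.16 (R 4.3.3; quasi-likelihood, group as the only term, TMM, filterByExpr with minimum count 10 and minimum total 15, Benjamini-Hochberg over all tested genes at 0.05), over all lengths and for 21 and 24 nt reads. The standard error was taken as |log2 fold change| over √F, and 95% intervals use the moderated degrees of freedom. CPM are TMM-normalised. Shares carry 95% Wilson intervals, from scipy 1.17.1, and were not tested. Alternatives were other size factors, other gene sets, other filters, a block for the replicate number, DESeq2 1.42.0 and leaving out each library. Named genes are the members, their neighbours, per list the tested gene with most counts and that with the smallest p, and the 3 nearest length profiles. The members and lists were chosen with earlier results of these data known.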

Additional observations from a re-analysis of the deposited data

How the results depend on the processing

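With 2 libraries per group, the count of called genes depended on the setting, while few settings called a member. Over all lengths 2 genes were called, and 562 without structural RNA and organelle genes, 83 with nuclear protein-coding genes only, 669 without a low-count filter, 0 with at least 50 counts, 589 in DESeq2, and 12 to 2155 without 1 library. Fitted alone (added after the data were seen), reads of 18, 19, 20, 22 and 25 nt gave 0 calls each and reads of 23 and 26 nt gave 2 each. In 21 nt reads the 0 calls became 143 with library size set to the sum of the 3 tables, 85 without structural RNA and organelle genes, 2 with nuclear protein-coding genes only, 82 without a filter, 12 in DESeq2 and 0 to 469 without 1 library. In 24 nt reads they became 551 without a filter, 121 in DESeq2 and 2 to 1551 without 1 library. Members called ranged from 0 to 2 over all lengths and from 0 to 1 in 24 nt reads without 1 library, and were 0 in every other setting and in all 21 nt fits; DESeq2 gave no adjusted p for RBCS2B, RBCS1B and LHCB2.1 in 24 nt reads.

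With the replicate number as a block, 596 genes (7.35%) were called over all lengths. In 21 nt reads 9 (0.636%) and in 24 nt reads 91 (1.99%) were called, and 0 members in each fit. Nothing in the labels pairs the libraries beyond the number; deviations of same-numbered libraries correlated at 0.158 over 8110 genes.

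Over all lengths, 95 of 108 member values kept their direction and RBCS1A, RBCS2B and CAB3 kept it throughout, though their sizes varied. Without 1 library RBCS1A ranged from -0.54 to -0.12, RBCS2B from -0.95 to -0.75 and CAB3 from 0.046 to 0.62. With nuclear protein-coding genes only, RBCS1A was at -0.057 and RBCS2B at -0.58. With library size set to the sum of the 3 tables, RBCS2B was at -1.07 and CAB3 at 0.055. Under nuclear protein-coding genes only RBCS3B turned to 0.15, RBCS1B to 0.10, CAB2 to 0.20 and, in 24 nt reads, CAB1 to 0.28, and the Calvin cycle median to 0.21. With library size set to that sum CAB1 turned to -0.19, LHCB2.2 to -0.081, the light-harvesting median to -0.039 and the photosystem median to -0.021; this scaling moved the median of all genes from -0.036 to -0.25. Without 1 library RBCS3B ranged from -0.37 to 0.12, RBCS1B from -0.82 to 0.35, CAB2 from -0.39 to 0.19, CAB1 from -0.099 to 0.25, LHCB2.2 from -0.064 to 0.43 and LHCB2.1 from -0.15 to 0.78. The light-harvesting median ranged from -0.12 to 0.57, that of the Calvin cycle from -0.38 to 0.30 and that of the photosystem list from -0.20 to 0.52. The scalings also moved the median over nuclear protein-coding genes. It went from -0.28 to 0.0034 with TMM factors from these genes only, and to -0.49 with library size set to the sum of the 3 tables. The cause of the changes in member and list values was not tested.

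The RBCS share of member reads, at -7.54 points, was at -6.64 with the most abundant copy of each family, -5.31 without RBCS1A, -6.02 without RBCS2B, -8.35 without CAB2, -9.20 without CAB1, and -8.21 to -6.88 without 1 library. Length differences kept their direction in every setting tried. Counts under 140 per library limit what can be said of RBCS1B.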

Other observations

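Counts of the Calvin cycle list and of the other light-harvesting list, summed per library, were set against each other in the same way as the members, after the data were seen. The Calvin cycle list held 32.2% and 31.4% of their joint reads in the PORI pair and 28.0% and 27.3% in the PORI rpt2a pair. The mean difference was -4.18 points, with both mutant libraries below both controls, and no test was made.

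In 22 nt reads fitted alone the 9 members had log2 fold changes from -1.85 to -0.45, with a median of -1.33 and 0 called. The median of the 2001 genes tested at that length was 0.031, and 680 of them had an unadjusted edgeR p under 0.05. A median over nuclear protein-coding genes was not taken at 22 nt. In 21 and 24 nt reads that median was -0.51 and -0.67, where all genes tested had -0.099 and -0.052. As a share of the members' own reads, 22 nt reads were 12.04% and 11.6% in the PORI pair and 12.4% and 10.3% in PORI rpt2a, so the groups overlapped on that scale.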
